A study of Mus musculus with 12 samples.

Results

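The genes described are 9 transcription factor genes that set or maintain macrophage identity: Spi1, Runx1, Cebpa, Cebpb, Cebpd, Klf4, Maf, Bhlhe40 and Bhlhe41. They were taken by name from a count table of 20551 genes of mouse airway macrophages (AMs), and all 9 were found in it and passed the filter on low counts. Scnn1b-Tg mice carry a transgene for the beta subunit of the epithelial sodium channel under the club cell secretory protein promoter, which is active in airway epithelium, and their airways fill with mucus; wild-type (WT) mice were the controls. All were C57BL/6 mice, and the study's methods give an age of 6 weeks for the animals used for sequencing. Cells of 3 to 4 animals were pooled and kept in medium alone or with 100 ng/ml lipopolysaccharide (LPS) of Pseudomonas aeruginosa for 12 h. Medium and LPS libraries of a genotype with the same number in their titles were taken as the same pool, divided between both treatments. Each genotype thus had a medium and an LPS group, 4 groups in all, with 3 libraries each. WT pools were numbered 16, 17 and 18, and Scnn1b-Tg pools 17, 18 and 19.

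PU.1, the product of Spi1, opens the chromatin of macrophage genes and is needed for the lineage to form, and RUNX1 prepares this step in blood progenitors. The C/EBP proteins are leucine zipper factors: C/EBPα, from Cebpa, acts with PU.1 in myeloid commitment and in resting cells, while C/EBPβ and C/EBPδ, from Cebpb and Cebpd, are known as inflammatory response factors, and C/EBPβ is needed for AMs to form. KLF4 is a zinc finger factor of monocyte differentiation, c-MAF (from Maf) is a leucine zipper factor that restrains self-renewal of macrophages and drives IL-10, and BHLHE40 and BHLHE41 are E-box repressors known to support AM identity and self-renewal.

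Libraries held 48.2 to 60.9 M deposited counts. Levels are given as CPM, the deposited counts scaled to a common library total by TMM, and a gene with at most 8 counts, or 0.137 to 0.163 CPM depending on the library, was treated as at the detection floor, since 1 read could add several deposited counts. By the library batch of the labels, batch 1 held WT pools 16 and 17 with Scnn1b-Tg pool 17, and batch 2 held WT pool 18 with Scnn1b-Tg pools 18 and 19. The study's methods adjust this experiment for the date of library preparation but do not assign pools to dates. All 16 listed AM markers were present in every library, with a summed level of 12250 to 25220 CPM. Of 11 neutrophil markers, 7 were in the table and summed to between 12.0 and 28.04 CPM; S100a9, Mmp9 and Ngp had at most 5 counts, while S100a8 reached 748 and Mmp8 907 counts. The accounts of the isolation differ. The labels describe lavage cells that adhered to plastic, but a remark in them says that sorted cells were probably used. The methods describe Siglec-F+ CD11c+ cells sorted from digested lungs. Scnn1b itself had 0 to 40 counts and was not called in any comparison, so it does not check the genotype labels in these cells. The WT LPS library of pool 17 had the lowest mean correlation with its own group over all genes tested (r = 0.9918, against 0.9922 to 0.9949 for the other 11 libraries), and WT changes with LPS are also given without it.

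The 9 factors covered a wide range of transcript abundance, from Cebpb near the top of the transcriptome to Maf at the floor. On the scale of CPM per kb of merged exons, WT medium cells held 1097 ± 81.5 of Cebpb, 196 ± 11.6 of Spi1, 180.5 ± 11.1 of Bhlhe40, 107 ± 5.87 of Cebpa, 32.8 ± 3.48 of Bhlhe41, 8.05 ± 1.36 of Klf4, 7.62 ± 0.864 of Cebpd, 4.08 ± 0.403 of Runx1 and 0.0294 ± 0.00841 of Maf (mean ± SD, n = 3). In this order the libraries of Spi1 and Bhlhe40 overlapped, as did those of Klf4 and Cebpd, and no other neighbours did. Over all 12 libraries Cebpb lay above 99.8%, Spi1 above 98.3% and Bhlhe40 above 97.9% of 13544 tested genes with a known length, whereas Runx1 lay above 53.4% and Maf above 0.783%. In Scnn1b-Tg medium, Bhlhe40 (186 ± 18.6) lay above Spi1 (175 ± 7.30), with overlapping libraries. In both LPS groups Spi1 lay above Bhlhe40 without overlap, at 190.9 and 128.8 in WT and 190.5 and 113.6 in Scnn1b-Tg. After LPS the order also changed at its lower end. Cebpd, which already lay above Runx1 in medium, moved above Klf4, with 15.4 ± 3.86 CPM per kb in WT LPS and 19.6 ± 2.81 in Scnn1b-Tg LPS. Klf4 dropped to 3.50 ± 0.480 and 3.11 ± 0.166, below Runx1 at 4.23 ± 0.452 and 4.46 ± 0.330 (n = 3 each). In WT LPS, the libraries of Runx1 and Klf4 overlapped.

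**Figure D1:**
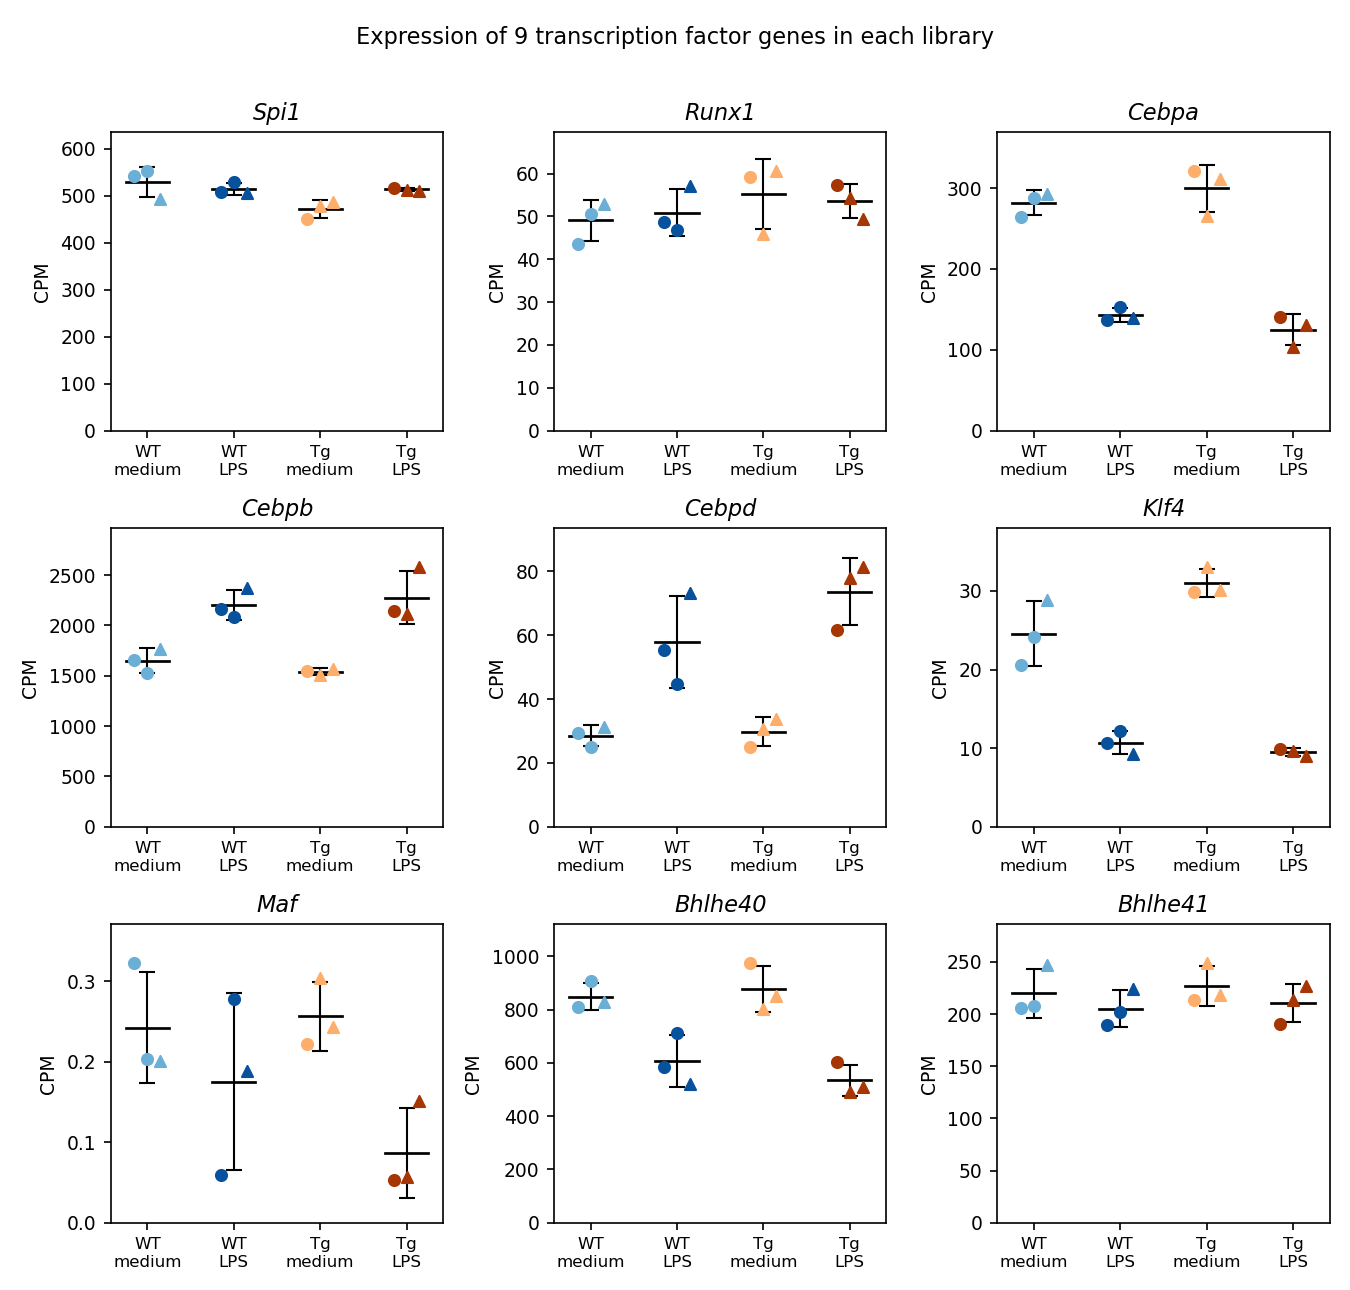
Expression of the 9 genes in each of the 12 libraries. The vertical axis of each panel is TMM-scaled CPM starting at 0, each point is a library (circles, batch 1; triangles, batch 2), and the horizontal line and bars are the mean and SD of 3 libraries. The LPS and medium libraries are fully separated in both genotypes for Cebpa, Cebpb, Cebpd, Klf4 and Bhlhe40, while Maf never exceeds 0.322 CPM.

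The first comparison asked how LPS changed these factors within each genotype. In both genotypes Cebpd and Cebpb rose and Klf4, Cebpa and Bhlhe40 fell, whereas Spi1, Runx1, Bhlhe41 and Maf did not pass the test. With this, 5 of 9 members were called in WT (edgeR quasi-likelihood test, Benjamini-Hochberg adjusted p under 0.05, two-sided) and 5 of 9 in Scnn1b-Tg, the same 5 in the same directions. Of all 13729 genes tested, 31.8% were called in WT and 38.1% in Scnn1b-Tg, and 27.4% were called alike in both. The median log2 change of the 9 members was -0.10 in WT and -0.11 in Scnn1b-Tg, beside 0.0029 and -0.015 over all genes. The summed level of the AM markers was lower with LPS: it ran between 19370 and 20510 CPM in WT medium, 12250 and 14660 in WT LPS, 21610 and 25220 in Scnn1b-Tg medium, and 13490 and 19230 in Scnn1b-Tg LPS. Of these 16 markers, 11 were called lower and 3 higher in WT, and 12 lower and 3 higher in Scnn1b-Tg. Chil3 and Cd9 made up most of the sum, with means of 9971 and 4678 CPM in WT medium and 7954 and 2543 CPM in WT LPS. Marco was higher with LPS, at 631 and 1255 CPM in WT and 512 and 1574 CPM in Scnn1b-Tg. The 8 monocyte markers summed to 67.4 to 83.3 CPM in WT medium and 173.5 to 214.5 in WT LPS, and to 44.3 to 62.4 and 132 to 192 in Scnn1b-Tg. Most of this rise was Treml4, with group means of 57.4 and 189 CPM in WT and 33.7 and 152 CPM in Scnn1b-Tg, and Ly6c2 and Ccr2, which define classical monocytes, had group means of at most 0.995 and 0.551 CPM. Of the 6 monocyte markers tested, 1 was called higher and 2 lower in WT, and 3 higher and 2 lower in Scnn1b-Tg. Ace had lower means with LPS, at 14.1 and 1.10 CPM in WT and 20.1 and 1.795 CPM in Scnn1b-Tg. The sum of the dendritic cell markers (5 of 7 in the table) was also higher with LPS, at 2.61 to 3.54 CPM in medium and 9.27 to 9.97 with LPS for WT, and 5.01 to 7.09 and 13.4 to 20.2 CPM for Scnn1b-Tg, mostly Ccr7. Of the 4 that were tested, 2 were called higher and 1 lower in each genotype. The part of other cells in the members' changes was not tested, and in bulk RNA fewer cells of a type and less RNA per cell cannot be told apart.

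**Figure D2:**
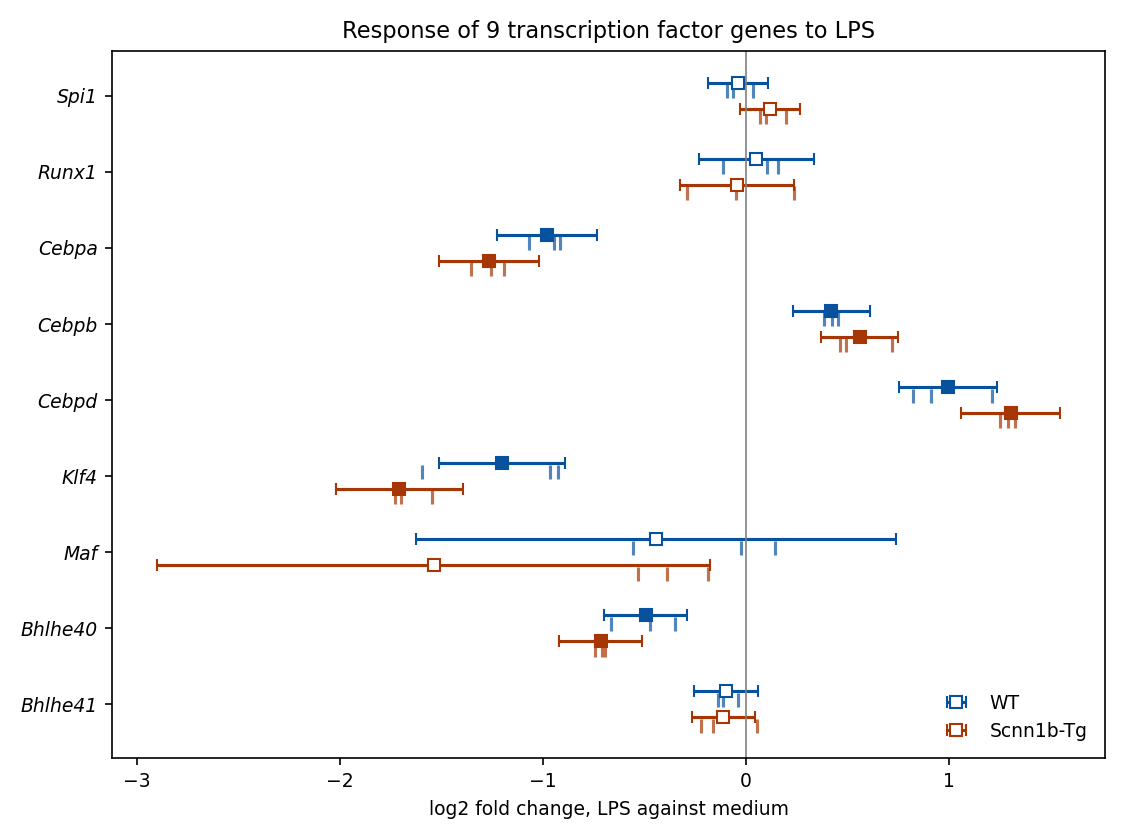
Response of the 9 genes to LPS. The horizontal axis is the log2 fold change of LPS against medium, squares are fitted values with 95% confidence intervals (blue, WT; brown, Scnn1b-Tg; filled, adjusted p under 0.05), and ticks beneath are the changes of the 3 single pools on the log2(CPM + 0.5) scale, which shrinks those of Maf. Cebpd at 1.00 and 1.3037 and Klf4 at -1.20 and -1.71 mark the ends among the genes that passed the test.

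Of the pair that founds the lineage, Spi1 and Runx1, neither changed detectably with LPS. Spi1 (ENSMUSG00000002111, chr2:91082390-91115756, plus strand, mm10) was listed at 542, 552.5 and 494 CPM in WT medium (pools 16, 17 and 18), at 509, 528 and 506 CPM in WT LPS, at 450, 479 and 488 CPM in Scnn1b-Tg medium (pools 17, 18 and 19) and at 517, 513 and 511 CPM in Scnn1b-Tg LPS. The WT medium and WT LPS libraries overlapped, while the 3 Scnn1b-Tg LPS libraries lay above the 3 Scnn1b-Tg medium libraries by a small margin. The fitted log2 change was -0.04 in WT (95% confidence interval -0.19 to 0.11, adjusted p = 0.696) and 0.12 in Scnn1b-Tg (-0.03 to 0.27, adjusted p = 0.188). The intervals thus leave room for only small changes of Spi1 in either direction. Of all genes tested, 43.8% had no overlap between the 3 LPS and 3 medium libraries of Scnn1b-Tg, against 38.7% in WT, so the separation of Spi1 is a common one. Runx1 (ENSMUSG00000022952, chr16:92601466-92826149, minus strand) lay between 43.7 and 57.1 CPM in the 6 WT libraries and between 46.0 and 60.6 CPM in the 6 Scnn1b-Tg libraries, with medium and LPS libraries overlapping in both. Its log2 change was 0.05 in WT (-0.23 to 0.33, adjusted p = 0.805) and -0.04 in Scnn1b-Tg (-0.33 to 0.24, adjusted p = 0.824). The antisense gene Gm26626 overlaps Runx1 and had 6 to 24 counts in these unstranded data.

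The 3 C/EBP genes parted after LPS: the gene of the resting-state factor fell and those of both inflammatory factors rose. Cebpa (ENSMUSG00000034957, chr7:35119293-35121928, plus strand) stood at 264, 288 and 293 CPM in WT medium and at 137, 153 and 140 CPM in WT LPS. In Scnn1b-Tg it went from 321, 266 and 312 CPM in medium to 140, 103.5 and 130.5 CPM in LPS. Every LPS library lay below every medium library. The log2 fold change was -0.98 (SE 0.11, adjusted p = 5.3e-05) in WT and -1.26 (SE 0.11, adjusted p = 5.53e-06) in Scnn1b-Tg, which is 1.97-fold and 2.40-fold lower. Without the WT LPS library of pool 17 the WT value was -1.01. Only 16.3% of the genes tested had a larger change in WT, and 13.1% in Scnn1b-Tg.

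Cebpb (ENSMUSG00000056501, chr2:167688915-167690418, plus strand) is encoded by a single exon and was the most abundant of the 9 transcripts. It had 1657, 1524 and 1769 CPM in WT medium and 2161, 2086 and 2374 CPM in WT LPS. The Scnn1b-Tg libraries held 1550, 1504 and 1567 CPM in medium and 2138, 2115 and 2578 CPM in LPS. The groups did not overlap in either genotype. It amounted to 0.42 on the log2 scale in WT (SE 0.09, adjusted p = 0.00326), or 1.34-fold higher, and to 0.56 in Scnn1b-Tg (SE 0.09, adjusted p = 0.000369), or 1.48-fold higher. The WT value was 0.44 without the WT LPS library of pool 17. In WT, 40.5% of all genes tested changed by more than Cebpb did on the log2 scale, so its change was small among the genes that responded while its gain in CPM was the largest of the 9 members. Tmem189 overlaps Cebpb on the opposite strand, and its own log2 change of 0.12 in WT and 0.18 in Scnn1b-Tg did not pass the test (adjusted p = 0.678 and 0.4705).

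Cebpd (ENSMUSG00000071637, chr16:15887286-15891031, plus strand), also encoded by a single exon, showed the larger rise from a much lower level. Its WT libraries held 29.3, 25.02 and 31.4 CPM in medium and 55.5, 44.7 and 73.3 CPM in LPS. In Scnn1b-Tg they held 24.8, 30.7 and 33.9 CPM in medium and 61.6, 77.8 and 81.3 CPM in LPS. The lowest LPS library, WT LPS 17, still lay above the highest medium library. The log2 fold change was 1.00 in WT (SE 0.11, adjusted p = 4.19e-05) and 1.3037 in Scnn1b-Tg (SE 0.11, adjusted p = 3.73e-06), corresponding to 2.00-fold and 2.47-fold. Leaving out WT LPS 17 gave 1.11 in WT. Cebpd also differed between library batches, being higher in batch 2 in all 4 groups by 0.21 to 0.55 on the log2(CPM + 0.5) scale, but its rise was present in each of the 6 pools, from 0.82 in WT pool 17 to 1.33 in Scnn1b-Tg pool 18. Spidr, which overlaps Cebpd on the other strand, changed by 0.19 and 0.22 without passing the test.

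To show the sequence that precedes these genes, the 250 bases before the start site were taken from RefSeq (GRCm38.p6), which had promoter entries for 5 of the 9 members and, among the genes that changed with LPS, for Cebpa, Cebpb and Klf4. Motifs were searched on both strands, where N is any base. Capitals mark TATAAA (a core promoter element), CACGTG (the E-box that BHLHE40 and BHLHE41 bind), TTGCNNAA (C/EBP), AGGAAG (PU.1 and other ETS factors), TGANTCA (AP-1), TGACG (part of the CRE element), TGTGGT (RUNX) and TGCTGAC (part of the MAF element). GGGCGG (GC box), CACCC (KLF) and the NF-kB motif were searched too but are left in lower case, and CACCC and TGACG may share bases with other matches.
Klf4, which fell most (chr4:55532476-55532725, minus strand): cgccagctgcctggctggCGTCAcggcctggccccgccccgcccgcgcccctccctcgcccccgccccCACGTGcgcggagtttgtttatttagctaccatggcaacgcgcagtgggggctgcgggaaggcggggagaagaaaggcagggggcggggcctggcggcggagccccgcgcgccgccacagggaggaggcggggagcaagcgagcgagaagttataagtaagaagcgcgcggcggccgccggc
Cebpa, the falling C/EBP gene (chr7:35119043-35119292, plus strand): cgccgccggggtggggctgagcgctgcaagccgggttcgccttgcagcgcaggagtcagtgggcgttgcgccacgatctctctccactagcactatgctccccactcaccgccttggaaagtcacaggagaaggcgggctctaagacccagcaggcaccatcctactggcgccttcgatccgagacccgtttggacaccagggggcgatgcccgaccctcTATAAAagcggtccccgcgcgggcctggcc
Cebpb, the rising C/EBP gene (chr2:167688665-167688914, plus strand): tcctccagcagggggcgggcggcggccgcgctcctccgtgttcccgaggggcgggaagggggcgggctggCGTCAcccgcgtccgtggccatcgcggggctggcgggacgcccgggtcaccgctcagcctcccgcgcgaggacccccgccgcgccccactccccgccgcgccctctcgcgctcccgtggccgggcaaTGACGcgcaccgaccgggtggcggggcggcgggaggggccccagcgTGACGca
The windows of both C/EBP genes share little in these letters. Cebpa carries TATAAA 30 bases before its start site, which 12.4% of all 32851 promoter windows of this length hold, and none of the other capitalised motifs. Cebpb carries TGACG at 3 places, starting 180, 53 and 7 bases before the start, and 17.8% of all windows hold at least 1. The Klf4 window holds an E-box starting 182 bases before the start, found in 6.02% of all windows, and 1 TGACG. Its GC content is 74.0%, beside 66.4% for Cebpa, 81.6% for Cebpb and a median of 52.4% over all windows. TTGCNNAA (9.56% of all windows), TGANTCA (6.75%), AGGAAG (29.5%), TGTGGT (14.0%) and TGCTGAC (3.81%) have no match in these 3 windows. GGGCGG occurs 5 times in Cebpb and 4 times in Klf4 (32.7% of all windows hold it), CACCC 2 times in Cebpb and 1 time in Cebpa (52.0%), and the NF-kB motif 3 times in Cebpa, 3 times in Cebpb and 4 times in Klf4 (45.8%). These matches describe letters and are not binding sites.

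The opposite changes of Cebpa and Cebpb shifted their balance. The ratio of Cebpb to Cebpa, in CPM per kb, was 10.99, 9.27 and 10.6 in WT medium and 27.65, 24.0 and 29.8 in WT LPS. In Scnn1b-Tg it was 8.46, 9.92 and 8.81 in medium and 26.7, 35.8 and 34.6 in LPS. The ratio rose in 6 of 6 pools, on average 3.06-fold, which follows from the rise of Cebpb and the fall of Cebpa in every pool. Its exact two-sided sign-flip permutation p was 0.0312, the smallest that 6 pools allow (adjusted p = 0.188 over 12 tests of ratios). This p adds no support beyond the tests of both genes, and no ratio test could have passed after adjustment. Within a genotype, 3 against 3 libraries cannot give an exact permutation p below 0.1, which was reached in both. The ratio in Scnn1b-Tg LPS (32.4 ± 4.95) and WT LPS (27.1 ± 2.95) overlapped, with an exact permutation p of 0.3. By pool, the rise of the ratio was larger in all 3 Scnn1b-Tg pools than in all 3 WT pools, by 0.43 on the log2 scale on average (exact permutation p = 0.1, the smallest possible, adjusted p = 0.2). Of the summed transcripts of the 3 genes per kb, Cebpa made up 8.85% ± 0.734 in WT medium and 3.55% ± 0.390 in WT LPS, and 9.90% ± 0.731 and 3.01% ± 0.489 in Scnn1b-Tg. Cebpd, despite its rise, remained at 0.996% ± 0.183 in WT LPS and 1.25% ± 0.160 in Scnn1b-Tg LPS (SD, n = 3 each).

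**Figure D3:**
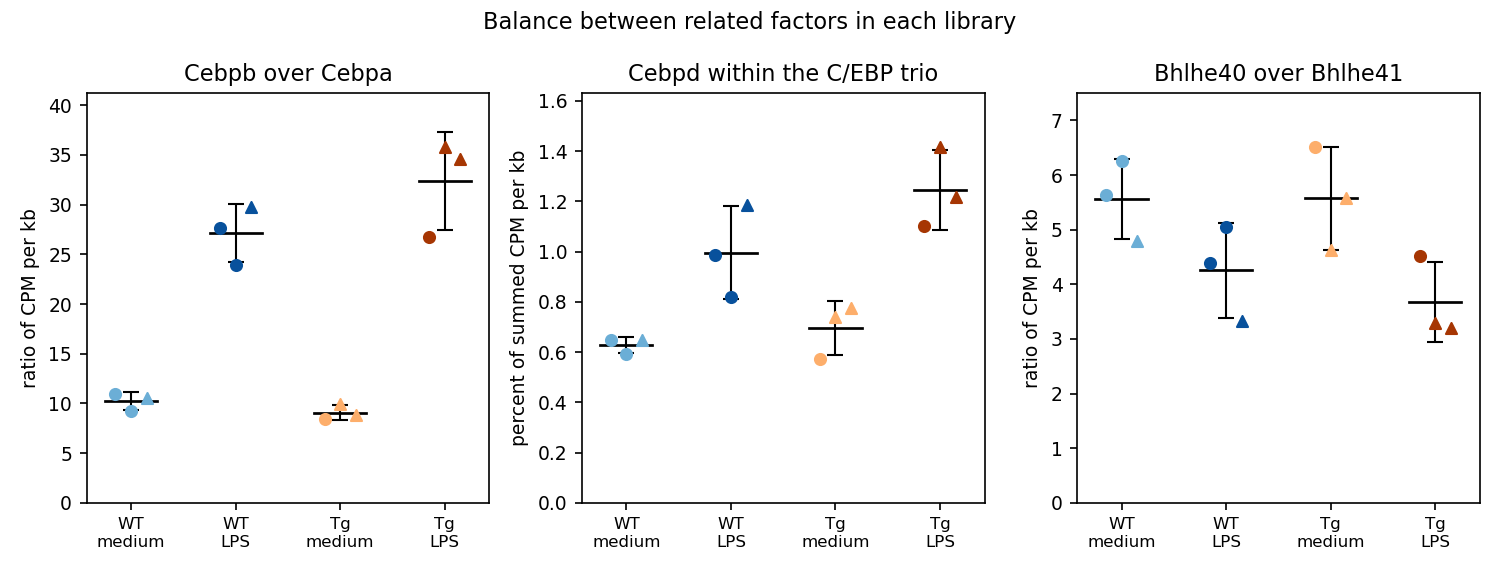
Balance between related factors in each library. The vertical axes start at 0 and show the ratio of Cebpb to Cebpa, Cebpd as a percentage of the summed C/EBP transcripts, and the ratio of Bhlhe40 to Bhlhe41, all from CPM per kb; points are libraries (circles, batch 1; triangles, batch 2) and lines and bars the mean and SD of 3. The ratio of Cebpb to Cebpa lies between 8.46 and 10.99 in all medium libraries and between 24.0 and 35.8 in all LPS libraries.

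Klf4 (ENSMUSG00000003032, chr4:55527143-55532466, minus strand), whose promoter window is printed with those of Cebpa and Cebpb, had the largest fall of the members that passed the test. It was listed at 20.6, 24.2 and 28.9 CPM in WT medium and at 10.6, 12.1 and 9.22 CPM in WT LPS. In Scnn1b-Tg it dropped from 29.9, 33.0 and 30.1 CPM to 9.93, 9.61 and 8.94 CPM. All LPS libraries lay below all medium libraries. The log2 fold change was -1.20 in WT (SE 0.14, adjusted p = 6.7e-05), 2.30-fold lower, and -1.71 in Scnn1b-Tg (SE 0.14, adjusted p = 3.43e-06), 3.27-fold lower. Without WT LPS 17 the WT value was -1.31. By pool, the change of Klf4 on the log2(CPM + 0.5) scale was -0.92, -0.96 and -1.597 in WT pools 16, 17 and 18, and -1.54, -1.73 and -1.70 in Scnn1b-Tg pools 17, 18 and 19. WT pool 18, the WT pool of batch 2, thus fell within the Scnn1b-Tg range, and both WT pools of batch 1 fell less.

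Maf (ENSMUSG00000055435, chr8:115682942-115707794, minus strand) was at or near the floor in all groups. Its deposited counts were 18, 10 and 10 in WT medium, 3, 16 and 10 in WT LPS, 13, 16 and 13 in Scnn1b-Tg medium and 3, 3 and 8 in Scnn1b-Tg LPS. The Scnn1b-Tg LPS libraries were all at or below the floor of 8 counts, and the Scnn1b-Tg medium libraries above it. The fitted log2 change in Scnn1b-Tg was -1.54, with a wide interval of -2.90 to -0.18 and an adjusted p of 0.0718, and in WT it was -0.44 (-1.62 to 0.74, adjusted p = 0.587). Maf thus did not pass the test in either genotype, but the call in Scnn1b-Tg turned on 1 library: without the Scnn1b-Tg LPS library of pool 19, which held the 8 counts, the change was -2.16 with an adjusted p of 0.04995.

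Of the E-box repressors, which are close paralogues, Bhlhe40 fell with LPS and Bhlhe41 did not pass the test. The test of the difference between their responses reached the smallest p that 6 pools allow (adjusted exact permutation p = 0.188). After adjustment over the 12 ratio tests it could not have passed, so it does not decide whether the responses differ. Bhlhe40 (ENSMUSG00000030103, chr6:108660629-108666925, plus strand) had 810, 908 and 829 CPM in WT medium and 584, 712.5 and 522 CPM in WT LPS. In Scnn1b-Tg the values were 974, 804 and 853 CPM in medium and 602, 492 and 509 CPM in LPS. LPS and medium libraries were separated in both genotypes, and the log2 fold change was -0.49 in WT (SE 0.09, adjusted p = 0.00177) and -0.72 in Scnn1b-Tg (SE 0.09, adjusted p = 9.96e-05). The WT value without WT LPS 17, the highest of the 3, was -0.59. Bhlhe41 (ENSMUSG00000030256, chr6:145858243-145865558, minus strand) had 206, 208 and 247 CPM in WT medium, 190, 202 and 224 with LPS, then 214, 248.7 and 218 CPM in Scnn1b-Tg medium and 191, 214 and 227 with LPS, with overlap throughout. Its log2 change was -0.10 in WT (-0.25 to 0.06, adjusted p = 0.339) and -0.11 in Scnn1b-Tg (-0.27 to 0.05, adjusted p = 0.251). The ratio of Bhlhe40 to Bhlhe41 per kb fell in 6 of 6 pools, by 1.42-fold on average (exact sign-flip permutation p = 0.0312, adjusted p = 0.188 over the 12 ratio tests). Group means of this ratio were 5.56 ± 0.731 in WT medium, 4.25 ± 0.868 in WT LPS, 5.57 ± 0.948 in Scnn1b-Tg medium and 3.67 ± 0.730 in Scnn1b-Tg LPS, and the libraries of WT LPS and WT medium overlapped. Both genes differed by batch in opposite directions, Bhlhe41 being higher and Bhlhe40 lower in batch 2 in all 4 groups. The antisense gene over Bhlhe40, 0610040F04Rik, had at most 3 counts.

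The second comparison asked whether Scnn1b-Tg and WT cells differed in these factors. No member was called in medium (edgeR; 0.335% of all genes were), in LPS (0.051%) or in the interaction, the difference between the LPS responses of the genotypes (0% of all genes). At an unadjusted p under 0.05 there were 2 members in medium, 0 in LPS and 1 in the interaction, beside 13.4%, 7.12% and 5.95% of all genes. DESeq2 and limma voom also called 0 members in each, with 2, 0 and 1 (DESeq2) and 2, 0 and 3 (voom) at an unadjusted p under 0.05. In medium these were Spi1, lower in Scnn1b-Tg with a log2 difference of -0.16 (95% interval -0.31 to -0.0026, unadjusted p = 0.0468, adjusted p = 0.363), and Klf4, higher by 0.33 (0.02 to 0.64, unadjusted p = 0.0371, adjusted p = 0.333). For both genes the 3 medium libraries of one genotype did not overlap those of the other, which holds for 18.4% of all genes tested. Within batches, the difference of Spi1 was -0.28 in batch 1 and -0.03 in batch 2, and that of Klf4 was 0.41 and 0.12, larger in batch 1 for both. Klf4 is also expressed by epithelium, whose 6 listed markers summed to 85.7 to 109 CPM in WT medium and to 41.6 to 73.3 CPM in Scnn1b-Tg medium. Other marker sums also differed between Scnn1b-Tg medium and WT medium without overlap. Those of neutrophils (18.4 to 28.04 against 13.1 to 17.1 CPM) and dendritic cells (5.01 to 7.09 against 2.61 to 3.54 CPM) were higher. Higher too were those of AMs (21610 to 25220 against 19370 to 20510 CPM) and endothelial or stromal cells (4.596 to 5.443 against 2.791 to 3.259 CPM). The monocyte sum was lower in Scnn1b-Tg medium (44.3 to 62.4 against 67.4 to 83.3 CPM). The part of these cells in the difference was not tested.

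In LPS the member with the lowest unadjusted p was Cebpd, at 44.7 to 73.3 CPM in WT and 61.6 to 81.3 CPM in Scnn1b-Tg, a log2 difference of 0.23 (-0.01 to 0.48, unadjusted p = 0.0591, adjusted p = 0.725). The libraries of both genotypes overlapped for all 9 members in LPS, while 9.11% of all genes showed no overlap. The remaining members other than Maf differed by between -0.18 (Klf4) and 0.07 (Runx1). For the interaction, all 5 LPS-responsive members had the larger fitted change in Scnn1b-Tg, and the median size of the log2 change over all genes was likewise larger there, at 0.36 against 0.32 in WT. None of these 5 differences passed the test. The interaction was -0.51 for Klf4 (-0.94 to -0.07, unadjusted p = 0.0259, adjusted p = 0.769), 0.31 for Cebpd (-0.03 to 0.64, adjusted p = 0.866), -0.28 for Cebpa (-0.63 to 0.06, adjusted p = 0.878), -0.22 for Bhlhe40 (-0.51 to 0.06, adjusted p = 0.905) and 0.14 for Cebpb (-0.13 to 0.41, adjusted p = 0.957). These intervals admit differences in response that 3 pools per genotype could not resolve.

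**Figure D4:**
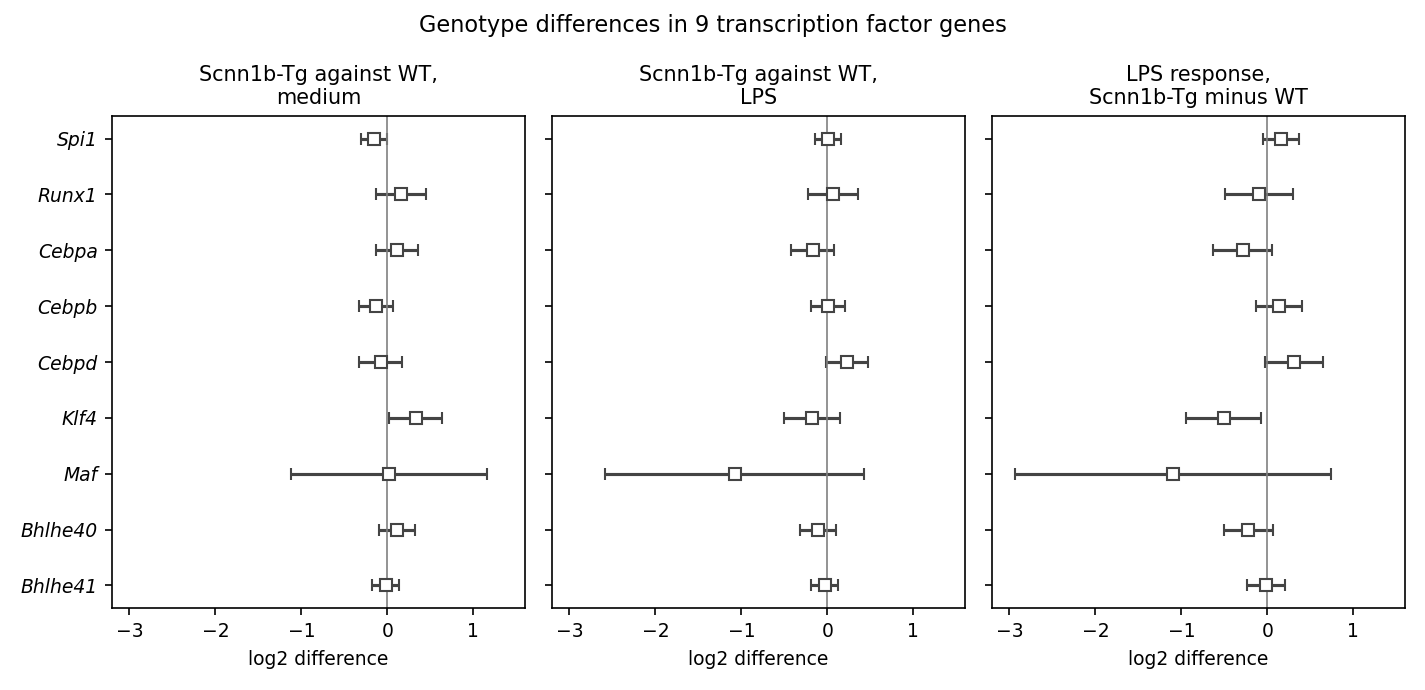
Genotype differences of the 9 genes. The horizontal axes show the log2 difference of Scnn1b-Tg against WT in medium, the same in LPS, and the difference of the LPS responses; squares are fitted values, bars 95% confidence intervals, and open squares mean that the adjusted p was at least 0.05. All 27 squares are open, and the interval of Maf is the widest in every panel.

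Variation between libraries of the same treatment tied some members together. With the mean of each treatment removed, Bhlhe40 and Cebpd varied in opposite directions over the 12 libraries (Pearson r = -0.92 of log2(CPM + 0.5)), and Bhlhe40 and Cebpa together (r = 0.75); no other pair of the 28 exceeded 0.7 in size. The libraries share pools and batches, and with the group and batch means removed the values were -0.82 for Bhlhe40 with Cebpd and 0.66 for Bhlhe40 with Cebpa, while Klf4 reached 0.72 with Bhlhe40 and -0.87 with Cebpd. For Cebpa and Cebpb, r was 0.0010 with treatment means removed and 0.54 with group and batch means removed. Of 9101 genes averaging 5 CPM or more, those most like a member in this variation were Usp6nl for Bhlhe40 (r = 0.97), Slc25a4 for Cebpd (0.98), Mbtd1 for Cebpa (0.96), Ptgr1 for Cebpb (0.88), Cdk13 for Bhlhe41 (0.92), Spred1 for Spi1 (0.91), Mnt for Klf4 (0.84) and Pxk for Runx1 (0.84). All are correlations over the same 12 libraries, chosen as the highest of many, and are given as description.

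Relatives and partners of the members were then examined from a list of 23 genes, of which 18 were tested. With LPS 7 rose and 4 fell in WT, and 7 rose and 5 fell in Scnn1b-Tg, with median log2 changes of -0.013 and 0.0456. Over all genes tested, 31.8% were called in either direction in WT and 38.1% in Scnn1b-Tg. All 3 small MAF proteins, which lack a transactivation domain and pair with other leucine zipper factors, rose: Maff from 20.6 ± 4.18 to 68.8 ± 7.60 CPM in WT, Mafg from 88.1 ± 8.23 to 209 ± 22.8 CPM and Mafk from 78.4 ± 3.45 to 122 ± 13.7 CPM (SD, n = 3 each). Within the KLF family Klf2, an anti-inflammatory factor of myeloid and endothelial cells, fell in the same direction as Klf4, with a log2 fold change of -1.37 in WT and -1.601 in Scnn1b-Tg, and Klf10 followed with -0.55 and -0.71. Klf6 rose by 0.31 and 0.35 and Klf13, at -0.03 and 0.02, did not pass the test. Cbfb, the partner of RUNX1, did not pass the test (0.22 and 0.12, adjusted p = 0.0524 and 0.267).

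Other macrophage and myeloid regulators were listed as 38 genes, of which 31 were tested. In WT 9 rose and 11 fell, and in Scnn1b-Tg 9 rose and 12 fell. This was 64.5% and 67.7% of those tested, beside 31.8% and 38.1% of all genes. Pparg, the nuclear receptor needed for AM differentiation, dropped from 122 ± 1.05 to 28.9 ± 1.34 CPM in WT cells and, for Scnn1b-Tg, from 152 ± 7.94 to 26.6 ± 0.841 CPM, with log2 fold changes of -2.08 and -2.51. Id3, an inhibitor of basic helix-loop-helix factors, fell by 2.00 and 2.09, and the ETS factor Fli1 by 1.42 and 1.35. The ETS factor Ets2 rose with LPS to 172 ± 30.8 CPM in WT (medium 32.6 ± 3.87) and to 171 ± 19.4 CPM in Scnn1b-Tg (medium 25.2 ± 2.73), while its ETS relative Spi1 did not pass the test. The repressor Bcl6 (0.73 and 0.85) and the MITF relative Tfec (0.58 and 0.78) rose less. No gene of these lists was called between the genotypes or in the interaction.

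Genes reported as targets of the members did not move as a block. Of 17 reported targets of PU.1, C/EBPα and RUNX1, 6 rose and 7 fell in WT, and 6 rose and 6 fell in Scnn1b-Tg, with median log2 changes of 0.06 and -0.08. Those called made up 76.5% of the list in WT and 70.6% in Scnn1b-Tg, beside 31.8% and 38.1% of all genes. The LPS co-receptor Cd14, the NADPH oxidase subunit Cybb and the scavenger receptor Msr1 rose, by 3.34, 1.54 and 1.10 in WT and by 4.10, 1.76 and 1.497 in Scnn1b-Tg. The Fc receptor genes Fcgr3 and Fcgr1 and the adaptor Tyrobp fell, with values of -2.15, -1.09 and -1.26 in WT and -2.03, -1.51 and -1.53 in Scnn1b-Tg. Csf1r, the CSF1 receptor and a classical PU.1 target, rose by 0.58 and 0.62. Of 9 tested targets of C/EBPβ and C/EBPδ, 7 rose in each genotype, with list medians of 5.44 and 6.46, and G0s2 fell in both and Arg1 in Scnn1b-Tg. In either direction, 88.9% of these 9 were called in WT and 100% in Scnn1b-Tg, beside the same shares of all genes. The acute-phase gene Lcn2 went from 0.178 ± 0.178 CPM in WT medium, where some libraries were at the floor, to 16.9 ± 7.29 CPM in WT LPS, and reached 46.0 ± 3.92 CPM in Scnn1b-Tg LPS. Il1b, at 2.78 ± 0.516 CPM in WT medium, reached 148 ± 12.8 CPM with LPS, and in Scnn1b-Tg it went up to 208 ± 58.4 CPM, having been at 2.36 ± 0.574. Ptgs2 stood at 0.932 ± 0.499 and 83.2 ± 41.1 CPM in the WT groups and at 0.309 ± 0.226 and 60.8 ± 9.12 CPM in the Scnn1b-Tg groups (SD, n = 3 each).

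Cd14 was the only gene of the regulator and target lists that was called between the genotypes. Its medium libraries held 49.3 to 67.4 CPM in WT and 32.1 to 37.3 CPM in Scnn1b-Tg, a log2 difference of -0.79 (SE 0.09, adjusted p = 0.00975). The difference kept a similar size but lost its call without WT medium 18 (-0.73, adjusted p = 0.0574), Scnn1b-Tg medium 17 (-0.82, adjusted p = 0.115) or Scnn1b-Tg medium 19 (-0.76, adjusted p = 0.0567), and without the batch term (-0.72, adjusted p = 0.0555). In LPS Cd14 did not differ detectably between the genotypes (-0.03, SE 0.09).

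**Figure D5:**
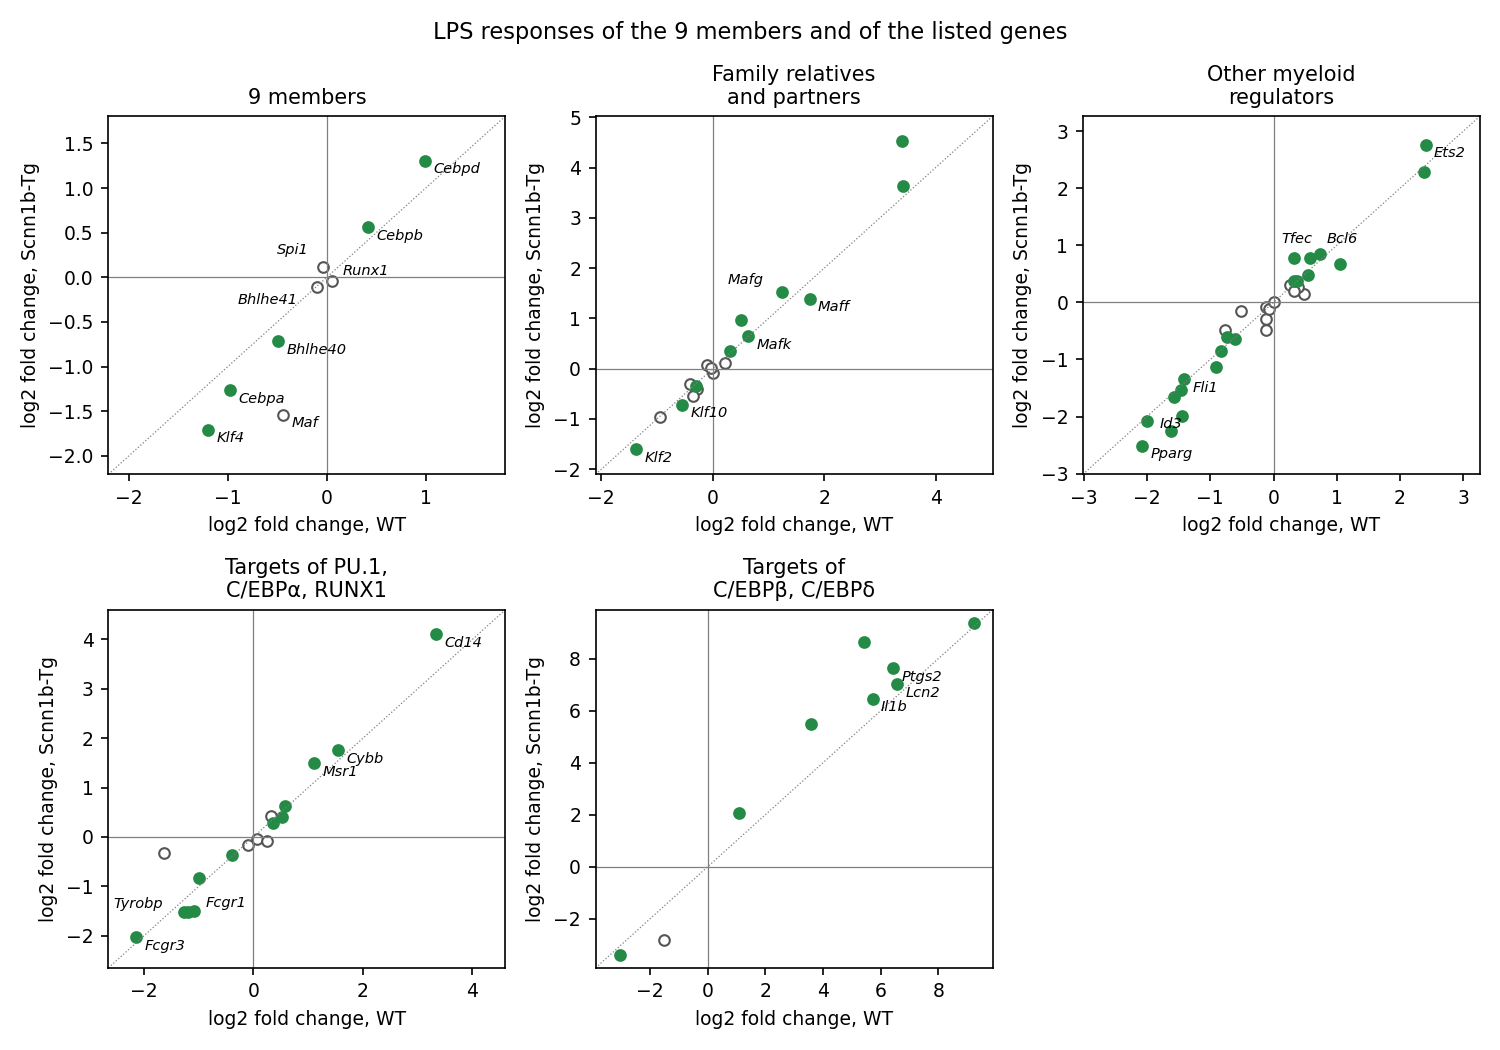
LPS responses of the 9 members and of the genes of 4 lists. Axes are the fitted log2 fold change of LPS against medium in WT (horizontal) and Scnn1b-Tg (vertical), each point is a gene (filled, adjusted p under 0.05 in both genotypes), and the dotted line marks equal change. Cebpd and Cebpb lie slightly above the line and Bhlhe40, Cebpa and Klf4 slightly below it, the change being larger in size in Scnn1b-Tg. Targets of C/EBPβ and C/EBPδ reach the highest rises.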

How the data were processed

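RNA of 12 libraries (4 groups of 3) was made with a low-input SMART-Seq v4 kit and sequenced as paired reads of 125 bases, per the labels and methods. The authors aligned the reads to mm10 with HISAT2 in the nf-core RNAseq pipeline (version 1.2) and, with StringTie and a GENCODE annotation, deposited unstranded estimated counts per gene, which were whole numbers and were not altered by rounding. Such counts are derived from coverage: of 47985 values from 1 to 30, 55.3% left a remainder of 0 or 3 on division by 5, where an even spread gives 40%, so 1 read may count more than once. Unstranded counts cannot separate a gene from an antisense partner.

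The 9 genes, the lists and the tests were chosen with earlier results of these data known. The ratio tests and the older quasi-likelihood alternative were added after the data were seen. Gene symbols and coordinates came from GENCODE for 20158 of 20551 identifiers. The low-count filter of edgeR (filterByExpr, with a minimum count of 10 and a minimum total of 15) kept 13729 genes, which were scaled by TMM. The quasi-likelihood test of edgeR 4.0.16 (R 4.3.3) was fitted over all 12 libraries with group and library batch as terms, two-sided, with Benjamini-Hochberg adjustment over all genes tested and a threshold of 0.05. Ratios of CPM per kb were tested by exact permutation. Log2 values of single libraries used a pseudocount of 0.5 CPM. The edgeR test had no pool term and treated the medium and LPS libraries of a pool as independent. Its p-values thus measure the spread between libraries. Libraries held 48.2 to 60.9 M counts, and among the members Maf had the fewest, at most 18 per library.

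Medium and LPS libraries of the same genotype and number were taken to hold cells of the same animals. Their deviations from the group means correlated in every pool (r = 0.1374 to 0.3351). WT and Scnn1b-Tg libraries of the same number and treatment, which hold cells of different animals, gave r = 0.1102 to 0.2611. The ranges overlapped, so these values alone do not show that the numbers pair samples within a genotype. Alternatives were DESeq2 1.42.0, its size factors, no filter, no batch term, counts divided by 5, the pool or number as a block (also limma 3.58.1 voom with the pool as a random effect), edgeR's older quasi-likelihood method and each library left out. From the lists, up to 3 genes that rose and 3 that fell most in both genotypes without overlap (mean of at least 5 CPM) were named by rule, and Csf1r, Klf6, Klf13, Cbfb, G0s2 and Arg1 after their values were seen. The list of relatives is given without 1 gene, and 1 list of targets is left out, which are not reported here. Genes most like a member were the highest correlations with treatment means removed.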

Additional observations from a re-analysis of the deposited data

How the results depend on the processing

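The number of members called stayed within 1.5 times its value in all 100 alternatives: 5 of 9 with LPS in each genotype, except 6 in Scnn1b-Tg without the Scnn1b-Tg LPS library of pool 19, where Maf was called (-2.16, adjusted p = 0.04995), and 0 for the genotype and interaction comparisons. Each replicate block changed no member's call. Leaving out single libraries moved the WT log2 changes between -1.32 and -1.02 for Klf4, -1.04 and -0.88 for Cebpa, -0.59 and -0.40 for Bhlhe40, 0.38 and 0.46 for Cebpb and 0.92 and 1.11 for Cebpd. Among the lists, Fcgr1 in WT lost its call without the batch term (adjusted p = 0.0523), and the targets of C/EBPβ and C/EBPδ that fell in Scnn1b-Tg went from 2 to 1 with counts divided by 5.

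Signs turned only for values near 0 that were not called, and the cause was not tested. In medium, the genotype difference of Maf was -0.0071 with DESeq2, -0.0051 with the older quasi-likelihood method and -0.125 with the replicate number as a block. Without the batch term it was 0.0434 for Bhlhe41 and 0.0611 for Cebpd. In LPS, that of Spi1 was -0.012 without the filter, -0.0027 without the batch term, -0.0013 with counts divided by 5 and -0.0078 with the number as a block. Bhlhe41 stood at 0.0343 without the batch term, and Cebpb at -0.0090 without the filter and -0.0159 with the block. With single libraries left out, the LPS change of Runx1 ran from -0.0558 to 0.1335 in WT and from -0.1713 to 0.0445 in Scnn1b-Tg. The medium differences ran from -0.2991 to 0.2948 for Maf, -0.0581 to 0.0341 for Bhlhe41 and -0.1845 to 0.0091 for Cebpd. The LPS differences ran from -0.0333 to 0.0195 for Spi1, -0.0655 to 0.0707 for Cebpb and -0.0276 to 0.197 for Runx1. The interaction ran from -0.073 to 0.0256 for Bhlhe41 and from -0.2204 to 0.0135 for Runx1. Of the members, Maf had the fewest counts (at most 18) and the widest intervals.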
